A study of Mus musculus with 8 samples.

Results

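The nucleosome remodelling and deacetylase (NuRD) complex was followed through 10 genes that encode its core subunits: the ATPases Chd3 and Chd4, the scaffold subunits Mta1, Mta2 and Mta3, the histone deacetylases Hdac1 and Hdac2, the methyl-CpG-binding domain protein Mbd3, and the zinc finger subunits Gatad2a and Gatad2b. They were taken by name, as every probe set whose gene symbol in the platform annotation is one of the 10. This gave 25 of the 45101 probe sets on the array, and 10 of the 18193 genes tested. The rule itself uses no measured value, but the set was chosen with earlier results of these data known.

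RNA levels came from 8 Affymetrix mouse arrays, with 2 in each of 4 groups: IkL/L thymocytes given the gamma-secretase inhibitor MRK-003 (GSI), IkL/L thymocytes given its vehicle DMSO, wild-type (WT) thymocytes given GSI, and WT thymocytes given DMSO. IkL/L mice lack most Ikaros activity, through a hypomorphic allele of Ikzf1 that carries a lacZ insertion. GSI stops the release of the intracellular part of Notch receptors. Its dose is labelled as 5 mM, and both agents were given for 16 h. In all 4 groups, lineage-depleted thymocytes had been grown on OP9 DL1, bone marrow stromal cells that display the Notch ligand Delta-like, before DN3 cells (CD44-negative, CD25-positive T cell precursors) were sorted. Age, sex and strain, and how many mice gave each sample, are not given in the sources used here. The labels do not tell whether the 2 arrays of a group stand for different mice or cultures. The p-values therefore reflect the spread among these arrays alone, which may be technical, and the small number of arrays limits precision.

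NuRD joins ATP-driven nucleosome movement to removal of acetyl groups from histones. CHD3 or CHD4 is the motor, MTA proteins hold HDAC1 and HDAC2 and the histone-binding proteins RBBP4 and RBBP7, and GATAD2 proteins tie the motor to MBD2 or MBD3. Paralogs replace each other in the complex, and cells hold several forms of it. In thymocytes a large share of Ikaros is bound to NuRD, mainly through CHD4, and Ikaros has been described both as bringing the complex to genes and as limiting its activity. The series allowed the levels of the partner genes to be compared when Ikaros was reduced and when Notch cleavage was stopped.

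Replicate arrays correlated with r between 0.975 and 0.993 across probe sets, and between 146 (IkL/L GSI) and 830 genes (WT GSI) lay over 2-fold apart between them. Ikzf1 was at log2 11.76 and 11.52 in IkL/L GSI, 11.14 and 11.19 in IkL/L DMSO, 12.18 and 11.95 in WT GSI, and 11.95 and 12.17 in WT DMSO, and the difference of IkL/L minus WT under DMSO was -0.90 ± 0.14 (SE; limma, adjusted p = 0.0222). Whether that probe set covers the altered region of Ikzf1 is not given here. The Notch target Dtx1 fell by 4.38 ± 0.14 under GSI on the log2 scale (SE; limma, adjusted p = 1.6e-05). Of the 14 measured DN3 and T lineage markers, 3 also fell under GSI on average (limma), beside 12.5% of all genes, and 11 did not pass. Those that fell were Il2ra (-2.275 ± 0.11, adjusted p = 7.16e-05), Ptcra (-1.9863 ± 0.11, adjusted p = 0.000119) and Cd2 (-2.5027 ± 0.40, adjusted p = 0.00293). The part of this shift in the NuRD values was not tested. By their mean over the 8 arrays, all 14 were above the array median. Among markers of other cells, 6 of 16 myeloid and dendritic, 6 of 9 B cell, 7 of 10 natural killer and innate lymphoid, 3 of 4 erythroid, 1 of 9 later thymocyte and 2 of 17 stromal genes were below it, so that most stromal markers were above it. The mean of the 17 stromal markers, which include the T cell gene Thy1, was higher on the array numbered 1 than on that numbered 2 in each of the 4 groups, between 7.65 and 8.24 against 6.73 and 7.56. The mean of the 16 myeloid and dendritic markers was 6.84 and 6.89 in IkL/L GSI, 5.70 and 5.71 in IkL/L DMSO, 5.68 and 5.94 in WT GSI, and 5.23 and 5.52 in WT DMSO. Their lowest member, Itgam, averaged 3.0, near the floor of the arrays. Averaged over genotypes, 8 of the 16 rose under GSI and 8 did not pass (limma), beside 10.8% of all genes that rose. Lyz1 rose by 2.23 ± 0.19 and H2-Aa by 2.15 ± 0.21 (SE). Csf1r (-0.0011 ± 0.12), Mpo (0.09 ± 0.08) and Elane (0.0021 ± 0.15) were among those that did not pass. Within genotypes, 8 of the 16 rose in IkL/L and 2 in WT, beside 7.7% and 2.31% of all genes. Under GSI, 8 of the 16 were higher in IkL/L than in WT, where 1.46% of all genes passed in either direction. H2-Aa differed most of these, by 4.21 ± 0.30 (SE; limma, adjusted p = 0.000498). None of the 16 passed the interaction. In sorted bulk samples, fewer cells of a type and less RNA per cell cannot be told apart. The part of other cell types in the NuRD values was tested only for the stromal markers, as a covariate.

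Averaged over both genotypes, the NuRD genes did not all move one way under GSI. Mta3 and Chd3 rose, Hdac2 and Mbd3 fell, and the other 6 did not pass (limma on all 8 arrays, Benjamini-Hochberg adjusted p below 0.05 over 18193 genes). Of all genes, 23.3% passed this test (10.8% higher and 12.5% lower), and of the 9096 genes above the median level, where all 10 NuRD genes lay, 39.4% passed. The share of the NuRD genes, 4 of 10, was close to that of the genes above the median level. Their median log2 difference was -0.29, beside -0.002 for all genes. The arrays of the treatments did not overlap for 6 of the 10 genes: Chd3 and Mta3 were higher on all 4 GSI arrays than on any DMSO array, and Hdac1, Hdac2, Mbd3 and Gatad2a were lower on all of them. Among all genes 22.3% separated in this way, 9.6% higher and 12.7% lower. This share was not taken among the genes above the median level.

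**Figure D1:**
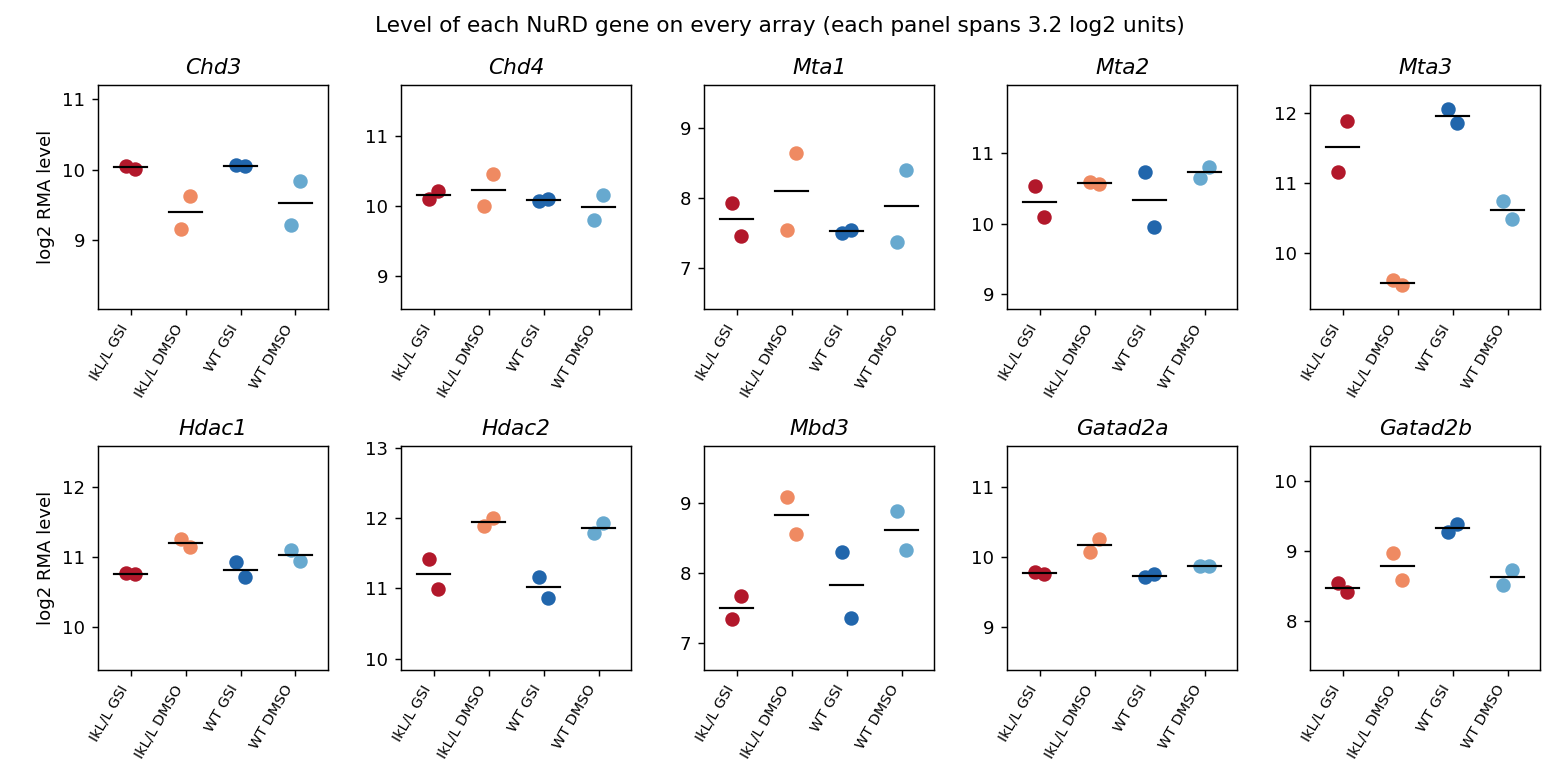
Log2 RMA level of each of the 10 NuRD genes (vertical axis) on the 2 arrays of each group; points are arrays, bars are group means, and every panel spans the same number of log2 units. Mta3 covers the widest range, with the IkL/L DMSO arrays at 9.54 and 9.61 and the WT GSI arrays at 11.85 and 12.05, while the 8 arrays of Chd4 stay between 9.80 and 10.46.

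Of the ATPase genes, Chd3 passed in the average GSI response and Chd4 did not. Chd3, encoding Mi-2 alpha, had log2 levels of 10.06 and 10.01 in IkL/L GSI and 9.15 and 9.63 in IkL/L DMSO. In WT cells it had 10.06 and 10.05 under GSI and 9.22 and 9.83 under DMSO. The 4 GSI arrays lay close together and above every DMSO array, whereas the DMSO arrays were spread more widely in both genotypes. Averaged over genotypes, Chd3 rose by 0.59 ± 0.17 (SE, 1.5-fold; limma, adjusted p = 0.041). The rise was 0.64 ± 0.24 in IkL/L and 0.53 ± 0.24 in WT, neither of which passed alone (adjusted p = 0.118 and 0.263). The call was the least stable of the 4: it remained in 2 of the 8 fits that left out a single array. It was lost without WT DMSO 1, either WT GSI array, IkL/L DMSO 1 or either IkL/L GSI array, with values between 0.43 and 0.60 and adjusted p up to 0.161.

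Chd4, encoding Mi-2 beta, the ATPase that binds Ikaros in T cells, showed no such shift. Its main probe set read 10.11 and 10.22 in IkL/L GSI, 10.01 and 10.46 in IkL/L DMSO, 10.07 and 10.10 in WT GSI, and 9.80 and 10.16 in WT DMSO. The groups overlapped within each genotype. The average GSI difference was 0.02 ± 0.14 (SE, 95% interval -0.31 to 0.35; adjusted p = 0.956). The other 2 probe sets of Chd4 gave 0.11 ± 0.24 and 0.19 ± 0.16, and neither passed. Chd4 minus Chd3 within each array was 0.05 and 0.20 in IkL/L GSI, 0.85 and 0.83 in IkL/L DMSO, 0.01 and 0.04 in WT GSI, and 0.58 and 0.33 in WT DMSO. This difference was lower on all 4 GSI arrays than on the DMSO arrays, by -0.57 (exact permutation test, p = 0.0286, the smallest that 4 against 4 arrays allow). Adjusted over the 6 paralog pairs it was 0.0572, the smallest adjusted value reached by any pair, and did not pass. Since the exact p was at its floor, this adjusted value could pass only if more pairs reached the floor, however large the difference. Not passing therefore says little about the size of the difference.

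The MTA genes held the largest response of the 10. Mta3 had 11.15 and 11.87 in IkL/L GSI and 9.61 and 9.54 in IkL/L DMSO. In WT it had 12.05 and 11.85 under GSI and 10.74 and 10.48 under DMSO. The groups did not overlap between treatments in either genotype. Mta3 rose by 1.64 ± 0.17 on average (SE, 3.12-fold; limma, adjusted p = 0.000488), by 1.94 ± 0.23 in IkL/L (adjusted p = 0.00171) and by 1.34 ± 0.23 in WT (adjusted p = 0.0192). The average call and the IkL/L call remained in each of the 8 fits without a single array. The WT call was lost without WT DMSO 1 (adjusted p = 0.0796) or WT DMSO 2 (adjusted p = 0.0915), and in the fit of the 4 WT arrays alone (adjusted p = 0.0786). With the mean of the Mta3 probe sets in place of the brightest, the average rise was smaller at 0.83 ± 0.14 (adjusted p = 0.00509), the IkL/L rise was 0.96 ± 0.20 (adjusted p = 0.0163) and the WT difference was 0.70 ± 0.20 and did not pass (adjusted p = 0.0948).

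MTA3 is known as the MTA protein that pairs with the repressor BCL6 in germinal centre B cells. Bcl6 also rose under GSI, by 1.32 ± 0.14 (SE; limma, adjusted p = 0.000604). The second bright probe set of Mta3, 1451352_s_at, read 10.55 and 11.09 in IkL/L GSI, 9.96 and 9.82 in IkL/L DMSO, 11.40 and 10.76 in WT GSI, and 10.62 and 10.36 in WT DMSO. It moved the same way by less, at 0.76 ± 0.19 (SE; limma over 45037 probe sets, adjusted p = 0.0353). A dimmer one, 1443350_at, stayed between 6.35 and 6.61 on all 8 arrays, with a difference of 0.09 ± 0.12.

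Mta2, the MTA scaffold commonly found with Ikaros in lymphocytes, had 10.54 and 10.09 in IkL/L GSI, 10.60 and 10.57 in IkL/L DMSO, 10.73 and 9.95 in WT GSI, and 10.66 and 10.80 in WT DMSO. In each genotype the array numbered 2 was the lower under GSI. The average difference was -0.33 ± 0.19 (SE; adjusted p = 0.27). It passed without WT GSI 1, at -0.52 ± 0.14 (adjusted p = 0.0284), and was 0.05 ± 0.25 (adjusted p = 0.93) with the RNA quality covariate described below. Mta1, the founding member of the family, had 7.92 and 7.47 in IkL/L GSI, 7.55 and 8.65 in IkL/L DMSO, 7.50 and 7.55 in WT GSI, and 7.38 and 8.40 in WT DMSO. The DMSO array numbered 2 lay far above that numbered 1 in both genotypes, and the average difference of -0.38 ± 0.30 did not pass (adjusted p = 0.446). Mta3 minus Mta2 within an array was between 0.61 and 1.90 on the GSI arrays and between -1.03 and 0.08 on the DMSO arrays, a difference of 1.97 (exact permutation p = 0.0286, adjusted over the 6 pairs 0.0572). Mta1 minus Mta2 differed by -0.05 between treatments (exact permutation p = 0.857).

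Of the deacetylase genes, Hdac2 fell under GSI, while Hdac1 was lower on the GSI arrays without passing. Hdac2 had 11.43 and 10.99 in IkL/L GSI and 11.89 and 12.002 in IkL/L DMSO. In WT it had 11.17 and 10.87 under GSI and 11.79 and 11.93 under DMSO. Every GSI array lay below every DMSO array. Hdac2 fell by 0.79 ± 0.13 on the log2 scale on average (SE, 1.73-fold; limma, adjusted p = 0.00295), by 0.74 ± 0.18 in IkL/L (adjusted p = 0.0248) and by 0.84 ± 0.18 in WT (adjusted p = 0.0313). The average call remained without any single array. The call within IkL/L was lost without IkL/L DMSO 1, IkL/L DMSO 2 or IkL/L GSI 2 (adjusted p up to 0.154). That within WT was lost without WT DMSO 1, WT DMSO 2, WT GSI 2 or either IkL/L DMSO array (adjusted p up to 0.139).

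Another probe set of Hdac2, 1449080_at, read 10.09 and 9.17 in IkL/L GSI, 10.71 and 10.87 in IkL/L DMSO, 9.63 and 9.02 in WT GSI, and 10.54 and 10.59 in WT DMSO. It fell by 1.2 ± 0.23 (SE; limma over 45037 probe sets, adjusted p = 0.0141), more than the main one. The dimmest of the 3 probe sets, 1439704_at, ranged from 6.34 to 7.67, overlapped between treatments and had a difference of 0.15 ± 0.38. With the mean of the 3 probe sets in place of the brightest, the average difference of Hdac2 was -0.61 ± 0.19 and did not pass (adjusted p = 0.0553), nor did the difference within IkL/L (adjusted p = 0.266) or WT (adjusted p = 0.183).

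Hdac1, whose product forms a dimer with HDAC2 in the complex, had 10.78 and 10.76 in IkL/L GSI, 11.27 and 11.14 in IkL/L DMSO, 10.93 and 10.71 in WT GSI, and 11.11 and 10.95 in WT DMSO. The 4 GSI arrays were lower than the 4 DMSO arrays, though WT GSI 1 and WT DMSO 2 were nearly level. The average difference was -0.32 ± 0.10 (SE), which narrowly missed the threshold (limma, adjusted p = 0.052) and passed without a variance trend (adjusted p = 0.044), among genes above the median level (adjusted p = 0.0304) or without WT GSI 1 (adjusted p = 0.0311). With the RNA quality covariate described below it was -0.12 ± 0.13 (adjusted p = 0.607). Hdac1 minus Hdac2 was between -0.65 and -0.16 on the GSI arrays and between -0.98 and -0.62 on the DMSO arrays. The difference of 0.47 did not pass (exact permutation p = 0.0571, adjusted over the 6 pairs 0.0856).

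Mbd3 encodes the subunit that, unlike its paralog MBD2, binds methylated DNA poorly and serves mainly as a structural part. Its single probe set had 7.35 and 7.67 in IkL/L GSI, 9.09 and 8.56 in IkL/L DMSO, 8.31 and 7.37 in WT GSI, and 8.89 and 8.34 in WT DMSO. All GSI arrays were below all DMSO arrays, with WT GSI 1 only just under WT DMSO 2. Mbd3 fell by 1.05 ± 0.25 on average (SE, 2.07-fold; limma, adjusted p = 0.0174) and by 1.32 ± 0.35 in IkL/L (adjusted p = 0.0376), and in WT the difference was -0.78 ± 0.35 (adjusted p = 0.256). The average call was lost without WT DMSO 1, IkL/L DMSO 1 or IkL/L GSI 1 (adjusted p between 0.0621 and 0.0762), and the IkL/L call without any of the 4 IkL/L arrays (up to 0.242). Mbd2, which marks the alternative form of NuRD, had a difference of 0.04 ± 0.12. Mbd3 minus Mbd2 was between -2.68 and -2.05 on the GSI arrays and between -1.59 and -0.94 on the DMSO arrays, a difference of -1.09 (exact permutation p = 0.0286, adjusted over the 6 pairs 0.0572).

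A measure of RNA quality moved with the treatment. The GAPDH control probe sets of the array, placed at the 3' and the 5' end of the transcript, differed by 3.09 and 3.03 log2 units in IkL/L GSI, 1.87 and 2.48 in IkL/L DMSO, 2.20 and 3.08 in WT GSI, and 1.71 and 2.12 in WT DMSO. The difference was larger under GSI within both genotypes. With it as a covariate, Mbd3 had an average difference of -0.20 ± 0.20 (SE; adjusted p = 0.564) and Chd3 one of 0.26 ± 0.24 (adjusted p = 0.522), so that both calls were lost. The calls of Mta3 (1.87 ± 0.25, adjusted p = 0.00133) and Hdac2 (-0.72 ± 0.20, adjusted p = 0.0301) remained in that fit, though the Hdac2 call within IkL/L was lost (adjusted p = 0.0933). Of the 10 differences, 5 were closer to 0 with the covariate, and 2 that had not passed turned sign, those of Mta2 and of Chd4 (-0.25 ± 0.20, adjusted p = 0.437). The part of RNA quality in these values beyond this fit was not tested.

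The sequence before the Mbd3 start site is shown as an example of a gene that fell, with matches to 2 motifs in capitals. They are CCAAT, the box bound by NF-Y, and TGGGAA, the core shared by binding sites of Ikaros and of the Notch partner RBPJ. Both strands were searched, so that CCAAT also appears as ATTGG, and the motifs do not overlap each other in the sequences printed. The stretch covers the 250 bases before the start, chr10:80399532-80399781 on the minus strand of GRCm38.p6, and holds 3 CCAAT matches and none of TGGGAA.
Mbd3: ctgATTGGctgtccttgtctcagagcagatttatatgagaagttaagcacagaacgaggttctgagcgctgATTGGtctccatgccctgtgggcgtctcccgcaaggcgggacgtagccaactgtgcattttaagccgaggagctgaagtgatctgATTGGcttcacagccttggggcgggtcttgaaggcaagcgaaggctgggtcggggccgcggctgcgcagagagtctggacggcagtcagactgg
Of the 32851 promoters of this length in RefSeq, 33.9% hold CCAAT and 21.6% hold TGGGAA. Of the 10 NuRD genes 7 were found in the promoter table, with 10 start sites. Only the second start site of Gatad2a held TGGGAA among them. Hdac2 also fell, and its start site held 0 matches to CCAAT and 0 to TGGGAA. A match is a run of letters and was not tested for binding.

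In the GATAD2 pair, the 2 genotypes ran in opposite directions for Gatad2b. Gatad2b, encoding p66 beta, had 8.54 and 8.41 in IkL/L GSI and 8.98 and 8.58 in IkL/L DMSO, with both GSI arrays below the DMSO arrays. In WT it had 9.27 and 9.39 under GSI and 8.52 and 8.73 under DMSO, with both GSI arrays above. The GSI difference was -0.30 ± 0.20 in IkL/L (SE; adjusted p = 0.373) and 0.70 ± 0.20 in WT (adjusted p = 0.0849), neither past the threshold. Their difference, tested as an interaction, was -1.0 ± 0.28 (95% interval -1.65 to -0.35; unadjusted p = 0.00756, adjusted p = 0.608). Only 8 of 18193 genes, or 0.044%, passed that test.

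These values come from 1425075_at, the brightest of the 5 probe sets of Gatad2b. Of the next in brightness, 1437474_at had GSI differences of -0.23 in IkL/L and 0.15 in WT, and 1437507_at had -0.07 in IkL/L and 0.45 in WT. Their interactions had the same sign and were smaller, at -0.38 ± 0.49 and -0.52 ± 0.41 (SE), and did not pass (adjusted p = 0.958 and 0.951). With the mean of the 5 probe sets the interaction was -0.21 ± 0.30 (adjusted p = 0.946). The 2 dimmest, with means of 5.56 and 4.94, had interactions of the opposite sign, at 0.76 ± 0.63 and 0.09 ± 0.19. The first of them, 1447026_at, had GSI differences of 0.35 in IkL/L and -0.40 in WT. None of the 5 probe sets passed in any contrast. Averaged over genotypes, the 5 probe sets had differences between -0.11 and 0.20.

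Gatad2a, encoding p66 alpha, had 9.78 and 9.76 in IkL/L GSI, 10.07 and 10.26 in IkL/L DMSO, 9.72 and 9.76 in WT GSI, and 9.88 and 9.87 in WT DMSO. The GSI arrays were all below the DMSO arrays, with little spread within groups, and the average difference was -0.27 ± 0.11 (SE; adjusted p = 0.123). Its second brightest probe set, 1423992_at, had 8.42 and 8.23 in IkL/L GSI, 8.84 and 9.08 in IkL/L DMSO, 8.38 in both WT GSI arrays, and 8.75 and 8.78 in WT DMSO. It fell by 0.51 ± 0.13 (SE; limma over 45037 probe sets, adjusted p = 0.0427). The other 3 probe sets gave values between -0.25 and 0.07 and did not pass. Gatad2a minus Gatad2b differed by -0.47 between treatments (exact permutation p = 0.229) and by 0.51 between IkL/L and WT (exact permutation p = 0.2), and no paralog pair passed in the comparison of genotypes (adjusted p between 0.729 and 0.829).

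The GATAD2 start sites are shown because, among the start sites found for the 10 NuRD genes, Gatad2b has the most CCAAT matches and Gatad2a the only TGGGAA. The first start site of Gatad2b, chr3:90292931-90293180 on the plus strand, has 5 matches to CCAAT. The second start site of Gatad2a, chr8:69974384-69974633 on the minus strand, has 1 match to TGGGAA and none to CCAAT. Both are in GRCm38.p6 with the motifs in capitals as above.
Gatad2b: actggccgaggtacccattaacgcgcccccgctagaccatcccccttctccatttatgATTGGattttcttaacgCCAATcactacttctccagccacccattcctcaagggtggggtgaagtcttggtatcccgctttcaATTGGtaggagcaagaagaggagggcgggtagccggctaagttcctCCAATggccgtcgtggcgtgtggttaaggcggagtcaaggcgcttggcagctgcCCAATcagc
Gatad2a: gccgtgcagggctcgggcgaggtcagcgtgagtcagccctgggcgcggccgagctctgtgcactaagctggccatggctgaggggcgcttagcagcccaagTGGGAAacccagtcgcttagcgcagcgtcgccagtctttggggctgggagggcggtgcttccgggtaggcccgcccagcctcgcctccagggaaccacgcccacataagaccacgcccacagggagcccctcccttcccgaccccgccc
The Gatad2a sequence has a GC content of 70.4% and the Gatad2b sequence one of 56.0%, beside a median of 52.4% for all promoters.

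**Figure D2:**
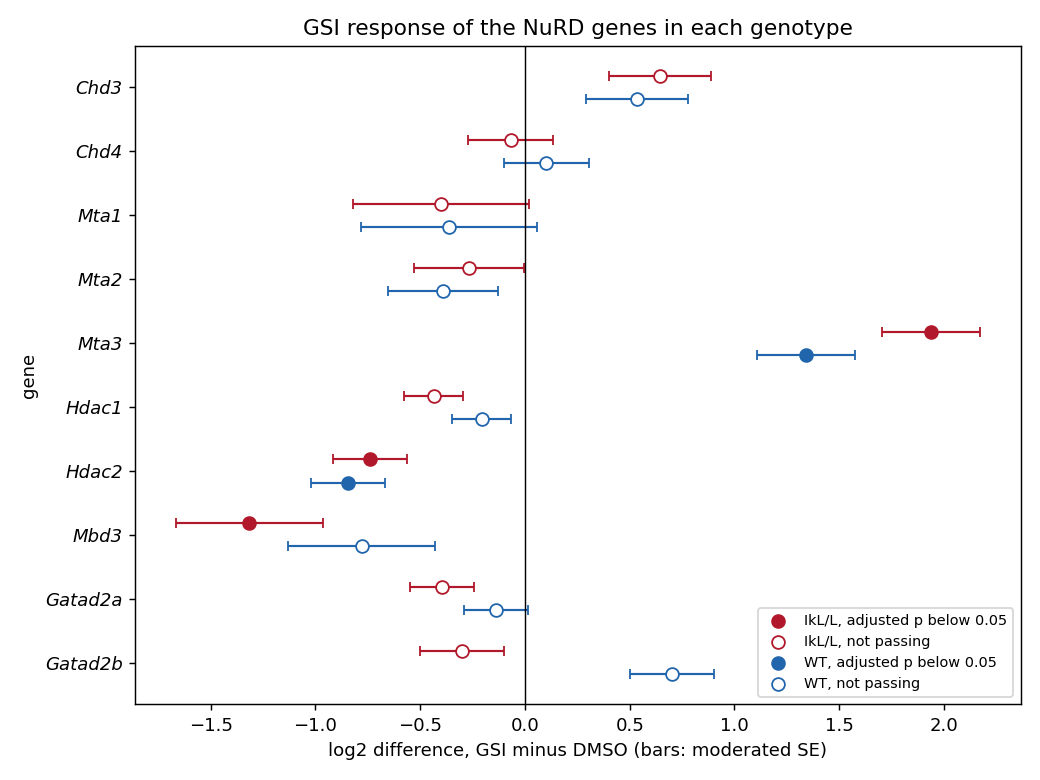
Log2 difference between GSI and DMSO (horizontal axis) of each NuRD gene, in IkL/L (red, upper) and WT (blue, lower); bars are moderated standard errors and filled points passed at an adjusted p below 0.05. Mta3 lies far to the right and Hdac2 to the left in both genotypes, Mbd3 passed in IkL/L, and Gatad2b is at -0.30 in IkL/L and 0.70 in WT.

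Over all 25 probe sets, 2 rose and 4 fell on average under GSI (limma over 45037 probe sets), beside 14.7% of all probe sets that passed (6% higher and 8.7% lower). Those that rose were both of Mta3, and those that fell were 2 of Hdac2, 1 of Mbd3 and 1 of Gatad2a. Chd3, with the same difference of 0.59, had an adjusted p of 0.071 in this wider test and did not pass. The 6 probe sets that passed had means between 8.20 and 11.51. No probe set with a mean below 8 passed. Those below 8 include the probe sets of Mta3 and Hdac2 that differ from their brighter partners. By their means these were at the 62.6 and 68.5 percentile of all probe sets, so they were dim only beside their partners.

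**Figure D3:**
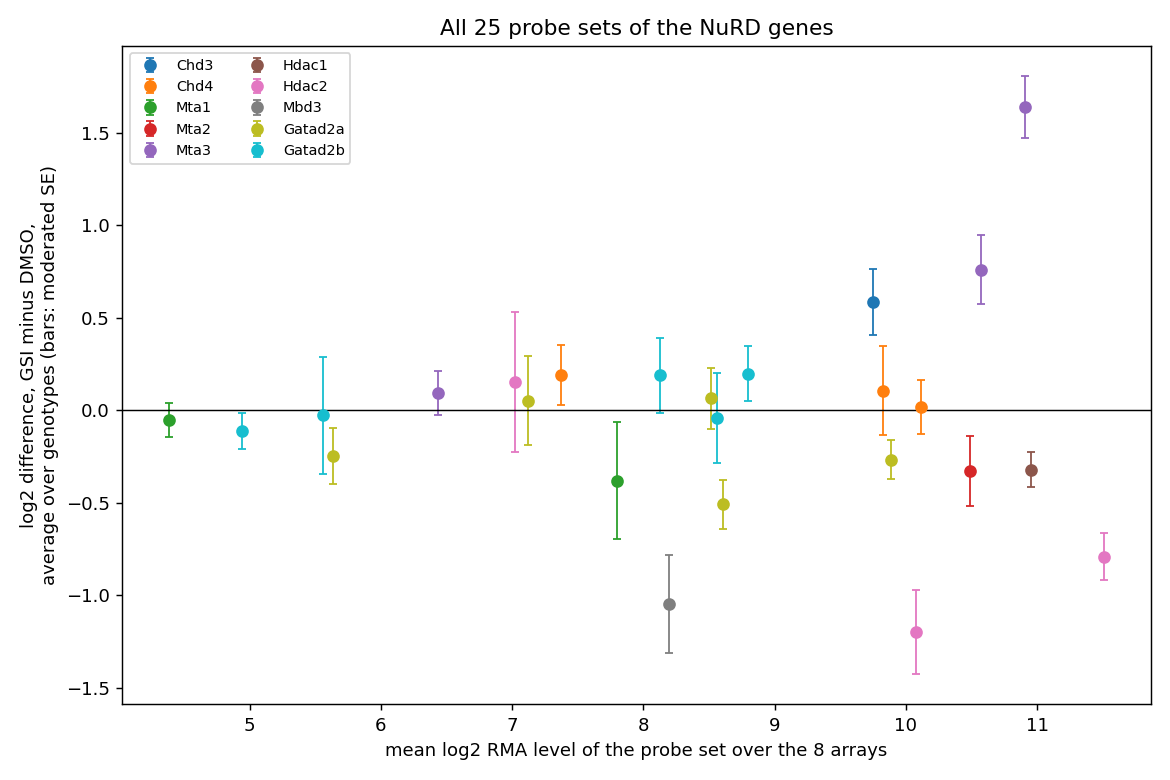
Mean log2 RMA level over the 8 arrays (horizontal axis) and average log2 difference between GSI and DMSO (vertical axis) of the 25 probe sets, coloured by gene; bars are moderated standard errors. The probe sets that lie far from 0 have means above 8, and the dimmest probe sets of Hdac2 and Mta3 lie at 0.15 and 0.09.

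Within the genotypes, 1 NuRD gene rose and 2 fell in IkL/L (Mta3, Hdac2 and Mbd3), where 16.8% of all genes passed (7.7% higher and 9.09% lower). In WT 1 rose and 1 fell (Mta3 and Hdac2), where 6.47% passed (2.31% higher and 4.16% lower). Both shares are of all genes, not of those above the median level. That Mbd3 passed in IkL/L alone is not shown to be a difference between genotypes, since its interaction was -0.54 ± 0.50 (SE; adjusted p = 0.933). No NuRD gene passed the interaction, and only Gatad2b had an unadjusted p below 0.05. For Mta3 the interaction was 0.60 ± 0.33 (95% interval -0.16 to 1.36; adjusted p = 0.867).

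Between genotypes, 0 of 10 NuRD genes passed under DMSO and 0 of 10 under GSI (limma), where 1.74% and 1.46% of all genes passed. A single gene in each had an unadjusted p below 0.05. Under DMSO this was Mta3, with 9.61 and 9.54 in IkL/L against 10.74 and 10.48 in WT. The difference of -1.04 ± 0.23 (SE) did not pass in the fit of all 8 arrays (adjusted p = 0.084) and passed in the fit of the 4 DMSO arrays alone (adjusted p = 0.046) and without IkL/L GSI 1 or IkL/L GSI 2 (adjusted p = 0.0419 and 0.0444). With the mean of its probe sets it was -0.56 ± 0.20 (adjusted p = 0.341). Under GSI the Mta3 values of IkL/L and WT overlapped, with a difference of -0.44 ± 0.23 (adjusted p = 0.575).

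Under GSI the gene with an unadjusted p below 0.05 was Gatad2b, with 8.54 and 8.41 in IkL/L against 9.27 and 9.39 in WT, a difference of -0.85 ± 0.20 (SE; adjusted p = 0.113). For Chd4 the difference was 0.25 ± 0.20 under DMSO (95% interval -0.22 to 0.72) and 0.08 ± 0.20 under GSI (95% interval -0.39 to 0.55). For Mta2 it was -0.15 ± 0.26 and -0.03 ± 0.26, and for Hdac2 0.08 ± 0.18 and 0.19 ± 0.18. Changes within these intervals could not be told from 0 on these arrays. The 4 IkL/L arrays did not separate from the 4 WT arrays for any of the 10 genes, which 5.02% of all genes did.

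Of the other subunits and associates of NuRD, 1 of 12 rose and 2 fell under GSI on average. Of all genes, 23.3% passed in this contrast (10.8% higher and 12.5% lower). Cdk2ap1, encoding a small subunit also known as an inhibitor of CDK2, had 12.02 and 11.81 in IkL/L GSI, 12.97 and 12.995 in IkL/L DMSO, 11.99 and 12.09 in WT GSI, and 12.78 and 12.68 in WT DMSO. It fell by 0.88 ± 0.08 (SE; limma, adjusted p = 0.000324), a change close in size to that of Hdac2 with tighter replicates. Rbbp7, a histone-binding subunit shared with other complexes, fell by 0.39 ± 0.06 (adjusted p = 0.00369). Both average calls remained in each of the 8 fits without a single array and with the RNA quality covariate. Both genes also passed within each genotype. In WT the call of Cdk2ap1 was lost without WT DMSO 1 or WT DMSO 2 (adjusted p up to 0.0961) and that of Rbbp7 remained in 3 of the 8 fits (adjusted p up to 0.122). In IkL/L that of Cdk2ap1 remained in all 8 and that of Rbbp7 in 2 (adjusted p up to 0.224). Its paralog Rbbp4 had -0.17 ± 0.06 (adjusted p = 0.077).

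Zmynd8, encoding a reader of modified histones that brings NuRD to sites of DNA damage, had 11.47 and 11.69 in IkL/L GSI, 10.46 and 10.40 in IkL/L DMSO, 11.64 and 11.40 in WT GSI, and 10.88 and 10.96 in WT DMSO. It rose by 0.88 ± 0.10 on average (SE; limma, adjusted p = 0.000831), and by between 0.815 and 0.936 when single arrays were left out. Within genotypes it rose by 1.15 ± 0.15 in IkL/L (adjusted p = 0.00209) and by 0.60 ± 0.15 in WT. The WT value was just under the threshold (adjusted p = 0.0499) and lay between 0.479 and 0.723 without single arrays. Its interaction of 0.55 ± 0.21 did not pass (adjusted p = 0.793). The zinc finger genes whose products join ZMYND8 did not pass: Zfp592 had 0.42 ± 0.16, Zfp687 had 0.38 ± 0.16 and Zfp532, a dim gene, had -0.12 ± 0.14. Kdm1a, the histone demethylase LSD1, had 0.08 ± 0.11. Another ATPase gene, Chd5, known mainly from neurons, stayed near the floor between 4.49 and 5.06 and had -0.05 ± 0.12. Pwwp2a and Pwwp2b, which bind the variant histone H2A.Z, had -0.47 ± 0.32 and -0.16 ± 0.17.

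The other chromatin complexes were listed for comparison, with the 23.3% of all genes as the background of the average GSI response. Among the genes above the median level that share was 39.4%. In the SIN3 complex, the other main home of HDAC1 and HDAC2, 0 of 12 genes passed in limma, with 1 at an unadjusted p below 0.05, and the largest differences were Sap30 at -0.45 ± 0.20 (SE) and Brms1 at -0.39 ± 0.34. In the CoREST and CtBP list 1 of 7 rose, Rcor3 by 0.84 ± 0.13, and in the NCoR and SMRT list 1 of 4, Tbl1xr1 by 0.46 ± 0.10, a call lost without WT DMSO 1, either IkL/L DMSO array or IkL/L GSI 2 (adjusted p up to 0.0617). With the RNA quality covariate the call of Rcor3 remained (adjusted p = 0.016) and that of Tbl1xr1 was lost (0.405 ± 0.16, adjusted p = 0.109). Of 9 other histone deacetylases 1 rose, the class IIa gene Hdac9, by 1.75 ± 0.14 (3.35-fold; limma, adjusted p = 0.000252). It had 7.95 and 8.13 in IkL/L GSI, 5.94 and 6.15 in IkL/L DMSO, 7.71 and 7.49 in WT GSI, and 5.93 and 6.29 in WT DMSO.

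Of 7 other CHD remodellers 3 rose and 1 fell. Chd2 rose by 1.01 ± 0.14, Chd6 by 0.82 ± 0.16 and Chd9 by 0.76 ± 0.20, while Chd1l fell by 0.54 ± 0.11. The call of Chd9 remained in 2 of the 8 fits without a single array (adjusted p up to 0.117), and that of Chd1l was lost without IkL/L DMSO 1 (adjusted p = 0.0613). In the SWI/SNF list 3 of 18 rose, among them the ATPase gene Smarca4 by 0.68 ± 0.09, and 5 fell, among them Actl6a by 0.75 ± 0.11. In the ISWI list 3 of 11 rose, among them Baz2b by 0.93 ± 0.24, and 4 fell, among them the ATPase gene Smarca5 by 0.70 ± 0.11. Leaving out single arrays gave between 2 and 3 higher and between 2 and 6 lower in SWI/SNF, and between 1 and 3 higher and between 1 and 4 lower in ISWI. The calls of Smarca4, Actl6a and Smarca5 remained in each of these fits, and that of Baz2b was lost without WT DMSO 1, IkL/L DMSO 1 or either IkL/L GSI array (adjusted p up to 0.0999). With the RNA quality covariate 1 of the 4 calls of the CHD list, 4 of the 8 of SWI/SNF and 3 of the 7 of ISWI remained. These lists, like NuRD, held genes of both directions, and their medians of 0.32, 0.05 and 0.04 lay closer to 0 than those of the growth lists below.

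Of 14 zinc finger factors known to bind NuRD, Bcl6 (1.32 ± 0.14), Ikzf2 (0.90 ± 0.20) and Ikzf4 (0.57 ± 0.17) rose and Ikzf3, encoding Aiolos, fell by 1.37 ± 0.23 (SE; limma, adjusted p = 0.00405). The calls of Bcl6 and Ikzf3 remained in each of the 8 fits without a single array, that of Ikzf2 was lost without IkL/L GSI 2 (adjusted p = 0.0572), and that of Ikzf4 remained in 1 of the 8 (adjusted p up to 0.155). With the RNA quality covariate Bcl6 and Ikzf3 still passed (adjusted p = 0.00485 and 0.0335). Ikzf2 (0.34 ± 0.22, adjusted p = 0.338) and Ikzf4 (0.19 ± 0.23, adjusted p = 0.626) did not pass in that fit. Ikzf1 itself had 0.24 ± 0.10 on average in the main fit (adjusted p = 0.139). Of the growth lists, 20 of 21 G1/S genes and 19 of 20 ribosome biogenesis and MYC-activated genes fell, with medians of -1.31 and -1.62. Between genotypes, Ikzf1 under DMSO was the single gene of the chromatin and zinc finger lists that passed.

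**Figure D4:**
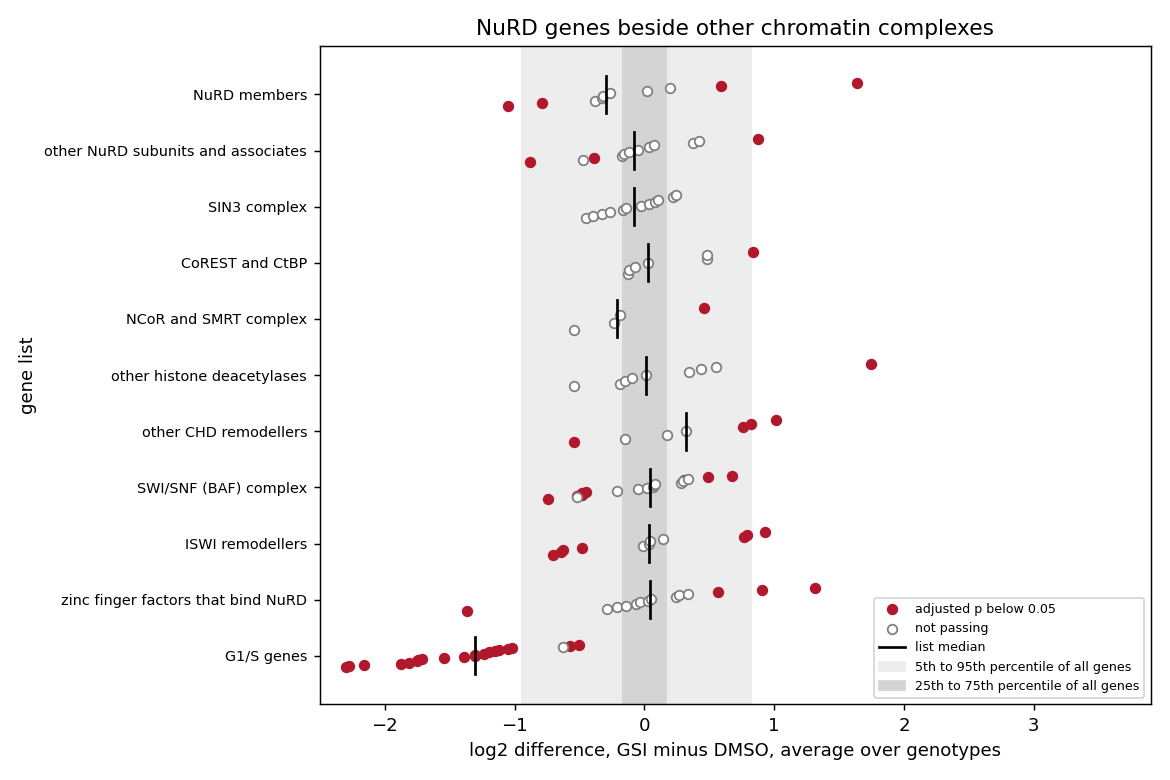
Average log2 difference between GSI and DMSO (horizontal axis) of the genes of each list (rows); filled points passed at an adjusted p below 0.05, ticks are list medians, and the shaded bands cover the middle of all 18193 genes. The NuRD genes scatter on both sides of 0 with a median of -0.29, as do the remodeller lists, while the G1/S genes lie to the left with a median of -1.31.

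Genes most like 4 of the members in their pattern over the 8 arrays were taken by Pearson's r among 8855 genes above the median level. All values share the same arrays and the same treatment contrast, and r is given as a description. For Hdac1 they were Snrpc, Nploc4 and Yif1b (r of 0.998, 0.996 and 0.996), and for Mbd3 the mitochondrial ribosomal protein genes Mrpl16 and Mrpl55 with the splicing gene Prpf31 (0.994, 0.992 and 0.993). For Mta2 they were Rtn4, Dvl2 and Katna1 (0.974, 0.961 and 0.96). For Chd4 the nearest were Pbx2, Supt6 and Oas1e (0.944, 0.911 and 0.904). Mta3 and Hdac2 were added after their values were seen. Nearest to Mta3 were Ypel5, Usp20 and Sbsn (0.994, 0.994 and 0.993), and nearest to Hdac2 were Tmpo, Smc2 and G3bp1 (0.996, 0.995 and 0.993).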

How the data were processed

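RNA of the sorted cells was amplified in 2 labelling cycles and hybridised to Affymetrix mouse arrays, per the labels. The deposited values are log2 values that the authors made with RMA, per the submitters' processing notes. The RMA version is not given in the sources used here. The values were used as deposited.

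Groups came from the sample titles. The gene tests left out 64 control probe sets, 932 assigned to several genes and 9160 with no listed gene. Each of the 9010 genes with several probe sets was represented by the one with the highest mean over all arrays. All 8 arrays were fitted with limma 3.58.1 in R 4.3.3 (4 group terms, contrasts, eBayes with a mean-variance trend, 4 residual and 4.11 prior degrees of freedom), with two-sided tests and Benjamini-Hochberg adjustment over 18193 genes or 45037 probe sets, called below 0.05. Differences within arrays between 6 paralog pairs were compared by exact two-sided permutation of 4 against 4 arrays. The fit was tested on simulated data.

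The 10 genes and the 19 gene lists (221 of 237 symbols measured) were chosen with earlier results of these data known. All 10 genes, the other NuRD genes and, from each list, up to 4 genes with the largest called change (or the 2 largest not passing) were named. The nearest patterns were fixed for Chd4, Mta2, Hdac1 and Mbd3. Promoters are RefSeq sequences of GRCm38.p6. Values ± are SE of a moderated difference. Tables and plots used Python 3.11.15, pandas 2.3.3, numpy 2.4.6 and matplotlib 3.10.9. Alternatives were a replicate block, other uses of probe sets, other scalings and variance models, only the arrays compared, a filter on dim genes, a 1.5-fold minimum, covariates for the GAPDH 3' minus 5' difference and stromal markers, and leaving out each array. A fit without both WT arrays numbered 1 was added after seeing the data.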

Additional observations from a re-analysis of the deposited data

Results flagged for a closer look

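Gatad2b stood out because its arrays moved in opposite directions in the genotypes. The IkL/L GSI arrays (8.54 and 8.41) were both below the IkL/L DMSO arrays (8.98 and 8.58), and the WT GSI arrays (9.27 and 9.39) were both above the WT DMSO arrays (8.52 and 8.73). The difference between the responses, IkL/L minus WT, was -1.001 on the log2 scale (SE 0.28; limma interaction, unadjusted p = 0.00756, adjusted p = 0.608) and did not pass over all genes. With the mean of its 5 probe sets it was -0.21 (SE 0.30; adjusted p = 0.946).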

How the results depend on the processing

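The number of NuRD genes called for the average GSI response was 4. It was 2 with the GAPDH 3' minus 5' difference as a covariate (Mta3 and Hdac2 remained) and ranged between 2 and 5 when single arrays were left out. In IkL/L it was 3, and 5 in the fit of only the arrays compared, with the stromal marker level as a covariate or without both WT arrays numbered 1, 1 with the GAPDH covariate, and between 1 and 4 without single arrays. In WT it was 2, and 0 with the mean over the probe sets of a gene, in the fit of only the arrays compared or without both WT arrays numbered 1, 1 with all probe sets as features, 4 with the stromal covariate, and between 0 and 2 without single arrays. Between genotypes under DMSO it was 0, and 1 (Mta3, lower in IkL/L) in the fit of only the arrays compared or with the GAPDH or the stromal covariate, and between 0 and 1 without single arrays. Under GSI it was 0, and 1 (Gatad2b, lower in IkL/L) with the stromal covariate. The probe sets called numbered 6, and between 2 and 5 without single arrays. In each case the cause was not tested.

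Of the paralog differences, Mta1 minus Mta2 between treatments was -0.05, and 0.11 with the mean over probe sets, and between -0.2559 and 0.1946 without single arrays. Between genotypes, Hdac1 minus Hdac2 was -0.08 and lay between -0.2323 and 0.043 without single arrays, and Mbd3 minus Mbd2 was 0.11 and lay between -0.1752 and 0.3528. None of these passed in any fit.

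Same-numbered arrays deviated together in 3 of the 4 groups: deviations from the group means correlated with r of 0.71 between WT GSI and WT DMSO, 0.579 between IkL/L DMSO and WT DMSO, and 0.562 between IkL/L DMSO and WT GSI. IkL/L GSI did not share this, with r between -0.113 and 0.025 against the other groups, so the numbers were not taken as pairs over all 4 groups. With the number as a replicate block, 5 NuRD genes were called for the average response (Hdac1 was added), 4 in IkL/L, 2 in WT, 0 in the interaction and in either genotype comparison, and 8 probe sets. Of 1120 values of single genes under the alternatives, 39 lost a call, 25 gained one, 55 without a call turned sign and 0 called values turned sign. Where a group was left with a single array, that array was assumed to vary like the others. The median shift of all genes under other scalings stayed between -0.044 and 0.023. For the average response and the interaction, the arrays compared are all 8, so that alternative adds nothing. No measure of array background was used, so how far signal limits the dimmer probe sets was not tested.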
